A study of Mus musculus with 32 samples.

Results

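The semaphorins, their plexin receptors, the neuropilin co-receptors and the related plexin domain containing genes were followed across 3 kinds of liver cells and 2 kinds of tumor sample of a mouse model of colorectal cancer liver metastasis. Members were chosen by gene name alone: every array probe whose name begins with Sema3, Sema4, Sema5, Sema6, Sema7, Plxna, Plxnb, Plxnc, Plxnd or Plxdc, or is Nrp1 or Nrp2. This gave 33 genes with 48 probes, of 34821 gene names and 55681 probes on the array. By role they comprise 7 secreted class 3 semaphorins, 6 of class 4, 2 of class 5, 4 of class 6, 1 of class 7, 9 plexins, 2 neuropilins and 2 plexin domain containing genes.

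The mice were Balb/c males of 6 to 8 weeks. Tumor-bearing animals received C26 cells, a colon carcinoma line syngeneic with this strain, by injection into the spleen, and control animals received PBS. After 14 days, liver sinusoidal endothelial cells, Ito cells (the stellate, vitamin A storing cells of the liver) and Kupffer cells (the resident liver macrophages) were separated by density gradient and adherence and kept in culture for at most 24 hours. The 8 groups, of 4 biological replicates each, were control and tumor microenvironment (TME) endothelial cells (EC and ET), control and TME Ito cells (IC and IT), control and TME Kupffer cells (KC and KT), liver metastasis (TM) and CRC primary tumor (TP). C26 is the only tumor line named for these mice, so they stand for 1 tumor model. How the TP samples were obtained, and whether a sample pooled several animals, was not given in the sources used here.

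Semaphorins are guidance cues that were first described in growing axons and also act on vessels, immune cells and tumor cells. Class 3 semaphorins are secreted and mostly signal through a neuropilin bound to a class A plexin, whereas Sema3e binds Plxnd1 directly. The semaphorins of classes 4, 5 and 6 span the membrane and the one of class 7 is held by a lipid anchor. Among known pairs, Sema4d binds Plxnb1, class 6 semaphorins bind class A plexins, and Sema7a binds Plxnc1 and integrins. Plexin signaling loosens adhesion and collapses the actin cytoskeleton. Neuropilins also bind VEGF, and in the liver Nrp1 and Nrp2 are known from sinusoidal and lymphatic endothelium.

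Levels are log2 of the deposited quantile-normalized intensity, from the brightest probe of a gene, and a difference of 1 is therefore a doubling. The levels of separate probes are not set against each other. A gene was called where the adjusted p of limma over all 55681 probes was under 0.05. The spot of 13 of the 33 genes was well above background in all 32 samples, as flagged by the scanner software. Another 8 genes met this in all 24 liver samples but not in all tumor samples, since 21 genes met it in the liver samples and 16 in the 8 tumor samples. The brighter Sema4f probe was well above background in no sample, its other probe in 1 KC sample, and Plxna3 in no liver sample.

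Several facts of the series touch the results below. Each array carried the control sample in Cy3 and the TME sample of the same replicate number in Cy5, or TM in Cy3 and TP in Cy5, without a dye swap, so dye cannot be told apart from TME or from primary tumor. Endothelial and Ito arrays shared a slide and Kupffer and tumor arrays another. The arrays of replicate 4 of the Ito and of the Kupffer cells ran against the other arrays of their kind, with a correlation of their differences to the mean of the others of -0.66 and -0.60 over 17105 probes. Whether the 2 channels of these arrays were exchanged was not tested. The labels were kept. Without these arrays 9 of the 92 calls of members were lost, those of Plxdc2 in TP against TM, Sema3a in EC against IC, Sema3f in ET against IT, Plxdc1 and Sema7a in TM against KC, Plxnc1 in TP against KT, Sema4c in KC against EC, and Plxna1 and Sema4g in KC against IC. On the tumor arrays the same correlation was -0.196 for replicate 1 and -0.065 for replicate 4, and both were kept. The marker check went against the Ito label in part: 9 of 10 stellate markers were well above background in all IC samples, as in all EC samples, and Lrat, the exception, in 2 of 4 IC and 0 of 4 IT samples. By group mean, every listed stellate marker but Lrat was higher in EC than in IC. Of these only Col3a1 was called (12.36 in EC against 9.82 in IC, adjusted p = 0.0232 by limma). The log2 of the summed stellate markers, in which Dcn is the brightest spot, was 17.06 to 18.14 in IC against 17.99 to 18.36 in EC. Hepatocyte markers reached 16.41 to 18.48 in IC against 13.96 to 14.06 in EC. In bulk samples of this kind, fewer cells of a type and less RNA per cell cannot be told apart.

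Probe sequences of Sema3e and Sema6d are shown first, because each level is that of a 60-base probe and not of a whole gene. The lines give the first 30 bases of the probe of Sema3e, the gene called in all 4 comparisons within arrays, and of the pair of Sema6d probes, which went in opposite directions between Kupffer and endothelial cells. They lie at chr5:14256598-14256656, chr2:124491609-124491668 and chr2:124490948-124491007 of mm9, the build of the array annotation, and their place relative to exons was not given in the files.
Sema3e A_55_P2087414: cctccacccaatactgcacaaagtctgtat
Sema6d A_55_P2125351: ttttcaatgccaccaacaaactatgttaag
Sema6d A_55_P2076861: taaagaggacaccatccttaaaacctgatg

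Promoters are shown for genes that moved together between tumor samples and Kupffer cells, as described below, and for Sema3e. A RefSeq promoter of the GRCm38.p6 build was given for 26 of the 33 genes, with 37 start sites in all, and none for Plxdc1, Plxdc2, Plxna1, Plxna4, Sema3b, Sema3f and Sema6a. Each line holds the 120 bases before the start, 5′ to 3′, with CG dinucleotides in capitals. Sema3a, Sema5a and Plxna3 were higher in the tumor samples, Plxnc1 and Sema3d were lower.
Sema3a, chr5:13396664-13396783, plus strand: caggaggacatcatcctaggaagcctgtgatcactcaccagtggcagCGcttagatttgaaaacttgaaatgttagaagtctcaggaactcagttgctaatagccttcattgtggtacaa
Sema5a, chr15:32244693-32244812, plus strand: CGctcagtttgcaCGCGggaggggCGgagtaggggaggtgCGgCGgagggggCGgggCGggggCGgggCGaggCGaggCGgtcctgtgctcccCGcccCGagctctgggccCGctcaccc
Plxna3, chrX:74328946-74329065, plus strand: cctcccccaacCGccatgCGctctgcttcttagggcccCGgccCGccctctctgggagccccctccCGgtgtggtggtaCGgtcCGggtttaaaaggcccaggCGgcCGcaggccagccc
Plxnc1, chr10:94944846-94944965, minus strand: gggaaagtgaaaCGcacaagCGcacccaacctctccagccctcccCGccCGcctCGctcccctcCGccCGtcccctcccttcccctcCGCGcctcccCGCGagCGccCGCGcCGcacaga
Sema3d, chr5:12383046-12383165, plus strand: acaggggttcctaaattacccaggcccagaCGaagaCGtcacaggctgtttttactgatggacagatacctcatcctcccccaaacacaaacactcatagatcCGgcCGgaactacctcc
Sema3e, chr5:14025156-14025275, plus strand: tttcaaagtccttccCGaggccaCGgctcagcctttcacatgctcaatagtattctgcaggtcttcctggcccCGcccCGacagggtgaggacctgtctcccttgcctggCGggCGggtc

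The printed stretches range from 1 CG in Sema3a to 15 in Sema5a and in Plxnc1, and the genes of either direction included one with few and one with many. Over the 250 bases before the start, the 7 promoters of 6 genes higher in tumors held a median of 17 CG (2 to 30). The 15 promoters of 8 genes lower in tumors held a median of 6 (1 to 32). The median was 13 (0 to 39) over all 37 promoters of the family and 6 (0 to 56) over all 32817 promoters. Start sites of the same gene were counted apart, as for Sema4a, Sema4c, Sema4d, Sema6b and Sema6d, so these medians are over promoters and not over genes. The GC box letters GGGCGG or, on the other strand, CCGCCC, each of which contains a CG, were present in 27 of the 37 promoters of the family and in 32.7% of all promoters. The letters TATAAA or TTTATA were in 0 of the 37 and in 12.4% of all, and the E-box CACGTG, which reads alike on both strands, in 2 of the 37 and in 6.02% of all. These are descriptions of the letters in a window and were not tested.

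**Figure D1:**
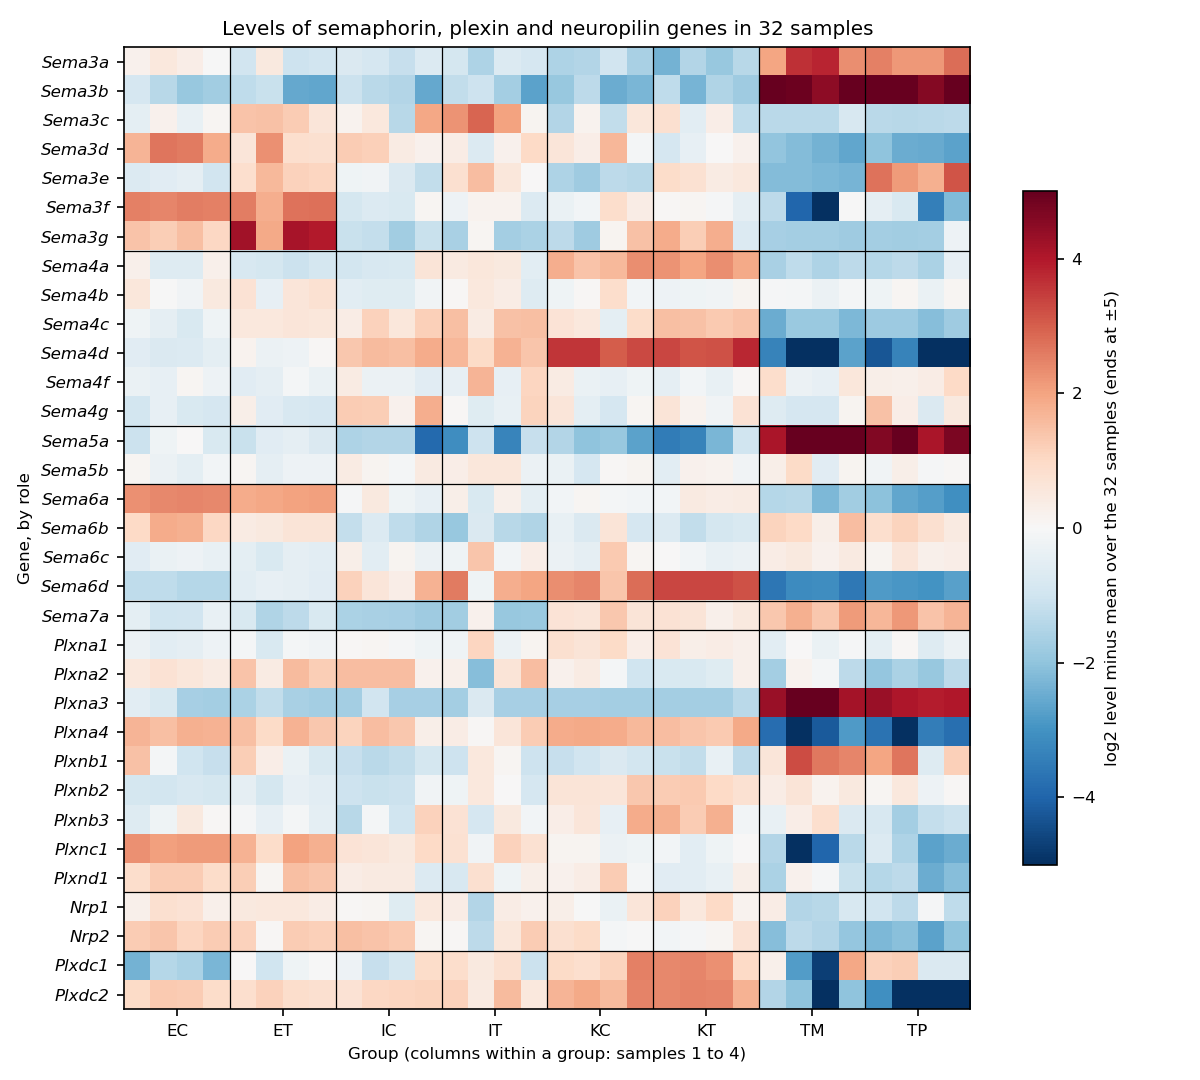
Levels of the 33 genes (rows, ordered by role) in the 32 samples (columns, 4 per group). Color gives the log2 level minus the mean of the gene over all samples. The tumor columns differ most from the liver columns, with Sema3b, Sema5a and Plxna3 high and Sema4d, Sema6d and Plxna4 low in all 8 tumor samples.

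The first question was what the tumor microenvironment did to these genes in each kind of liver cell. Sema3e was the only gene called in TME against control, and it was higher in the TME samples of all 3 cell types. Of the 33 genes, 1 was higher and 0 lower in ET against EC, in IT against IC and in KT against KC alike. Over all genes with 1 probe each, 0.692% were higher and 0.712% lower in ET, 0.327% and 0.0258% in IT, and 0.448% and 0.0488% in KT. At an unadjusted p under 0.05 by limma, 9, 8 and 5 of the 33 genes differed, beside 8.81%, 10.5% and 7.23% of all genes. The methods' t-test after Benjamini-Hochberg adjustment called 4, 0 and 1, beside 5.02%, 2.04% and 0.0976% of all genes. Over the 33 genes the median size of the difference was 0.37 for ET, 0.40 for IT and 0.34 for KT, beside 0.17, 0.23 and 0.20 over all genes. All genes include those with dim spots and were not matched to the members in brightness.

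Sema3e, a secreted ligand of Plxnd1, was at 3.46, 3.60, 3.71 and 3.18 in EC and at 4.98, 5.77, 5.30 and 5.21 in ET. In the Ito cells the levels were 3.92, 3.96, 3.43 and 2.93 in IC and 4.95, 5.67, 4.73 and 4.15 in IT. Kupffer cells had 2.61, 2.37, 2.84 and 2.74 in KC and 5.05, 4.89, 4.54 and 4.66 in KT. In each cell type the lowest TME sample lay above the highest control sample. By limma, TME exceeded control by 1.83 (SE 0.28, adjusted p = 0.000303) in the endothelial pair, by 1.31 (SE 0.28, adjusted p = 0.029) in the Ito pair and by 2.15 (SE 0.28, adjusted p = 3.66e-05) in the Kupffer pair. No KC sample had this spot well above background, so the rise in KT is at least 1.27-fold. This bound sets the mean of the bright group against the dimmest signal still called above background, after normexp correction and loess normalization. In EC and IC it was well above background in 1 of 4 samples, against 4 of 4 in ET and 3 of 4 in IT.

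Sema3e was higher in the Cy5 than in the Cy3 sample on 16 of 16 arrays, the tumor arrays included, which held for 0.405% of all genes and for no other member. Most members with the same sign on arrays 1 to 3 turned on the Ito and Kupffer arrays of replicate 4 (12 of 14 and 16 of 21). There Sema3e was still higher in Cy5, at 4.15 against 2.93 and at 4.66 against 2.74. With normexp background correction and quantile normalization the differences were 0.45, 0.33 and 0.38 with adjusted p of 0.0837, 0.428 and 0.286, and none of the 3 calls remained. The Ito call was lost in 9 of the 14 alternative settings, and the endothelial and the Kupffer call in 2 of 14 each. The TME and the dye cannot be told apart in these values.

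**Figure D2:**
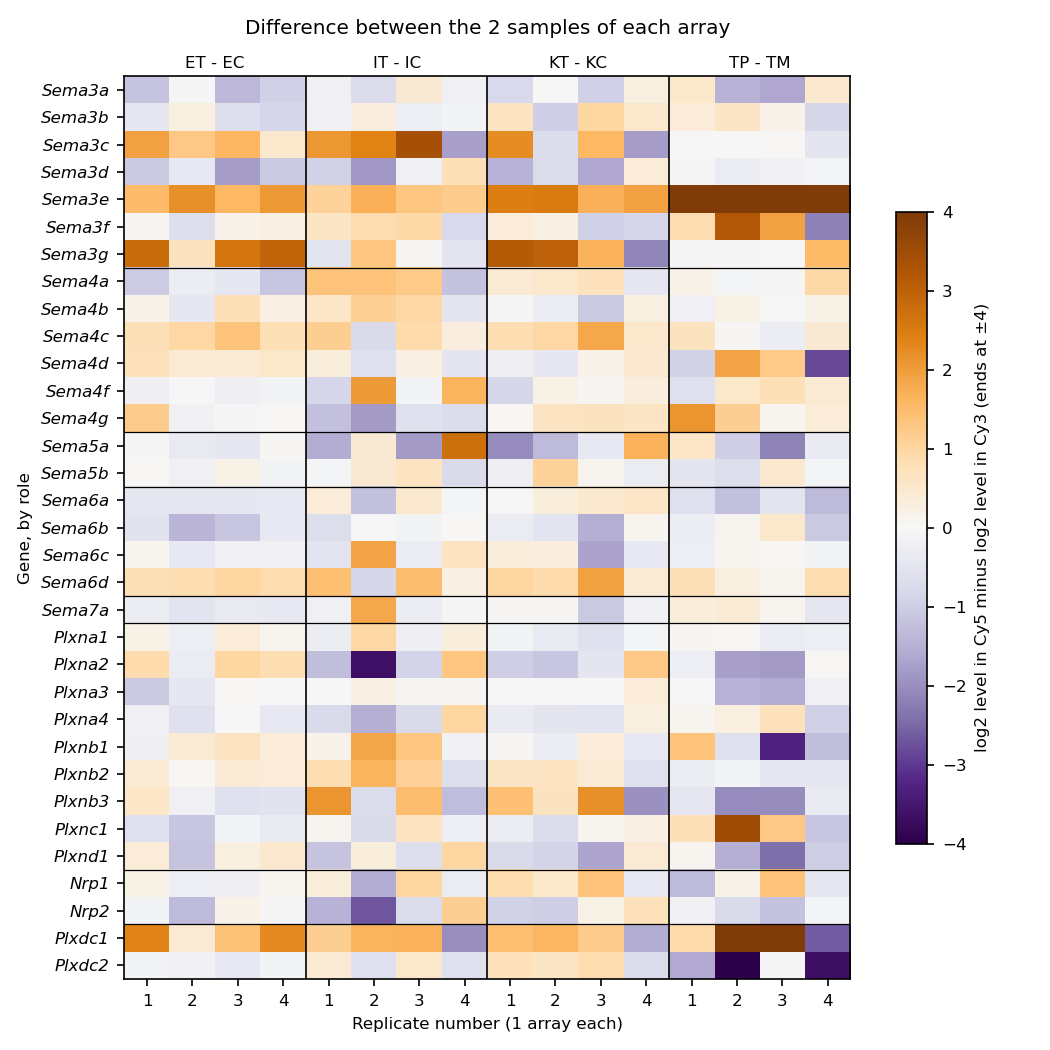
Difference in log2 level between the Cy5 and the Cy3 sample of each of the 16 arrays (columns, replicate 1 to 4 within a comparison) for the 33 genes (rows, by role). Sema3e is higher in Cy5 on all 16 arrays, and many genes of the Ito and Kupffer blocks change color at replicate 4.

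Leaving out the 2 Ito and Kupffer arrays of replicate 4 changed the Ito result most. They were chosen after seeing the data and for the direction of their differences, so the adjusted p without them are conditioned on that choice and serve as a description. Among the members whose difference had the same sign on arrays 1 to 3, array 4 was opposite for 12 of 14 genes in the Ito and 16 of 21 in the Kupffer cells. This held for 1 of 19 in the endothelial cells and 8 of 18 on the tumor arrays. Without these arrays 7 members passed the threshold in the Ito cells, 5 higher and 2 lower, beside 4.58% and 4.03% of all genes. In Kupffer cells 3 were higher, beside 2.07% of all genes, and in the endothelial cells, which kept their 4 arrays but shared the new estimate of the spread, 3 were higher, beside 1.02%.

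Nrp2, the co-receptor for Sema3f and for VEGF-C, was at 16.63, 16.54, 16.42 and 15.23 in IC and at 15.18, 13.83, 15.67 and 16.37 in IT. Replicate 4 was the lowest of the control samples and the highest of the TME samples. Its difference was -0.94 (SE 0.39, adjusted p = 0.43) with all arrays and -1.63 (adjusted p = 0.00728) without array 4. Plxna2, a class A plexin, behaved alike, at 11.42, 11.42, 11.43 and 10.12 in IC and 10.15, 7.77, 10.53 and 11.42 in IT, with -1.94 (adjusted p = 0.0204) without array 4. Sema4a, a class 4 semaphorin known from immune cells, was at 8.77, 8.88, 8.92 and 10.33 in IC and 10.12, 10.24, 10.16 and 9.14 in IT, so that replicate 4 of each group lay nearer to the other 3 samples of the opposite group than to its own. Without array 4 it was higher in IT by 1.32 (adjusted p = 0.00219).

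The remaining Ito calls without array 4 were Sema3c (2.62), Plxnb2 (1.18), Sema4b (0.89) and Sema3e (1.35), all higher. The Kupffer calls were Sema3e (2.22), Sema3g (2.62) and Sema4c (1.20). The endothelial calls were the same 3 genes, Sema3e, Sema3g (2.25) and Sema4c (0.97). Sema4c was higher in the Cy5 than in the Cy3 sample on 14 of 16 arrays, 3 tumor arrays among them, and Sema3g on 10 of 16. Sema3g, a class 3 semaphorin known from endothelium, was at 5.25, 5.08, 5.36 and 4.86 in EC and 8.05, 5.75, 7.97 and 7.80 in ET, with ET replicate 2 below the other 3 but still above every EC sample. With all arrays its difference of 2.25 had an adjusted p of 0.0687. By the other Sema3g probe, ET minus EC was 0.65 (adjusted p = 0.904 by limma).

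The test of the interaction found no member whose change differed between cell types, with 0 called by limma in any of the 3 pairs of cell types. Of all genes, 0.115% were called with a higher and 0.0345% with a lower change in Ito than in endothelial cells, 0.0747% and 0.0287% in Kupffer than in endothelial cells, and 0% and 0.00287% in Kupffer than in Ito cells. At an unadjusted p under 0.05 there were 4, 2 and 3 members in these pairs, beside 4.94%, 4.1% and 4.21% of all genes. Without the 2 arrays, Sema4a passed the threshold: its difference between TME and control was 2.04 larger in Ito than in endothelial cells (adjusted p = 0.00173). In endothelial cells it was at 9.95, 9.05, 9.05 and 9.94 in EC and 8.89, 8.80, 8.62 and 8.80 in ET, with every ET sample below every EC sample, whereas on Ito arrays 1 to 3 the IT sample was the higher one. The endothelial difference of -0.72 had an adjusted p of 0.5.

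The neuropilins and Plxnd1 were described whether called or not. Nrp1, the co-receptor for Sema3a and VEGF-A, was at 7.26, 7.77, 7.71 and 7.23 in EC and 7.47, 7.53, 7.50 and 7.35 in ET, a difference of -0.03 with a 95% interval of -0.83 to 0.77. In Kupffer cells it was at 7.28, 6.98, 6.65 and 7.58 in KC and 8.13, 7.53, 7.99 and 7.18 in KT, with a difference of 0.58 (-0.21 to 1.38). Its groups overlapped in every cell type. Nrp2 was at 16.40, 16.52, 16.21 and 16.37 in EC and 16.27, 15.19, 16.39 and 16.31 in ET, with ET replicate 2 alone below the others.

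Plxnd1, the receptor of Sema3e, was at 12.87, 13.28, 13.25 and 12.91 in EC and 13.22, 12.09, 13.52 and 13.40 in ET. In the Kupffer cells it was at 12.23, 12.38, 13.29 and 11.88 in KC and 11.45, 11.48, 11.63 and 12.31 in KT. The differences of -0.02 (-0.85 to 0.82) and -0.73 (-1.56 to 0.11) did not pass the test, and the groups overlapped. A change in Plxnd1 of up to the ends of these intervals cannot be told from these samples.

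The second comparison within arrays set the primary tumor against the liver metastasis. Sema3e was higher and Plxdc2 and Sema6a were lower in TP, beside 2.16% higher and 0.79% lower over all genes. Sema3e was at 1.99, 1.98, 1.90 and 1.80 in TM and 6.84, 6.27, 5.91 and 7.29 in TP, with no overlap. Its difference was 4.66 (SE 0.28, adjusted p = 6.78e-12), and since the spot was not well above background in any TM sample the rise is at least 1.93-fold. This call remained under each of the 14 alternative settings in which it was tested, again with TP in Cy5 and TM in Cy3 throughout.

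Plxdc2, a membrane protein with a plexin-like domain, was at 6.60, 6.04, 2.00 and 6.04 in TM and 4.98, 2.04, 1.96 and 2.37 in TP. The groups overlapped, because TM replicate 3 was as low as the TP samples, and the spot was well above background in 3 of 4 TM and 0 of 4 TP samples. Its difference of -2.33 (SE 0.65, adjusted p = 0.0481) corresponds to a level lower by at least 1.21-fold, and it did not pass the test in 10 of 14 settings. Sema6a, a membrane semaphorin that binds Plxna2 and Plxna4, was at 4.90, 4.96, 4.10 and 4.60 in TM and 4.28, 3.74, 3.58 and 3.27 in TP. The groups overlapped here too. The difference of -0.92 (SE 0.23, adjusted p = 0.0256) lay near the background, with 2 of 4 TM and 0 of 4 TP samples well above it, and gives no fold. This call was lost in 8 of 14 settings.

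Several members spread widely among the 4 TM samples. Plxdc1, at 6.77, 3.73, 1.81 and 8.44 in TM, and Sema3f, at 8.56, 5.92, 4.54 and 9.86, were high in replicates 1 and 4 and low in 2 and 3. Sema5a and Plxna2, at 10.52, 12.55, 12.66 and 11.51 and 8.21, 10.08, 9.80 and 8.56 in TM, ran the other way. Sema3a, at 9.81, 11.48, 11.66 and 10.16, did so as well. Replicates of a group have no order, and what sets these pairs of samples apart was not tested.

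**Figure D3:**
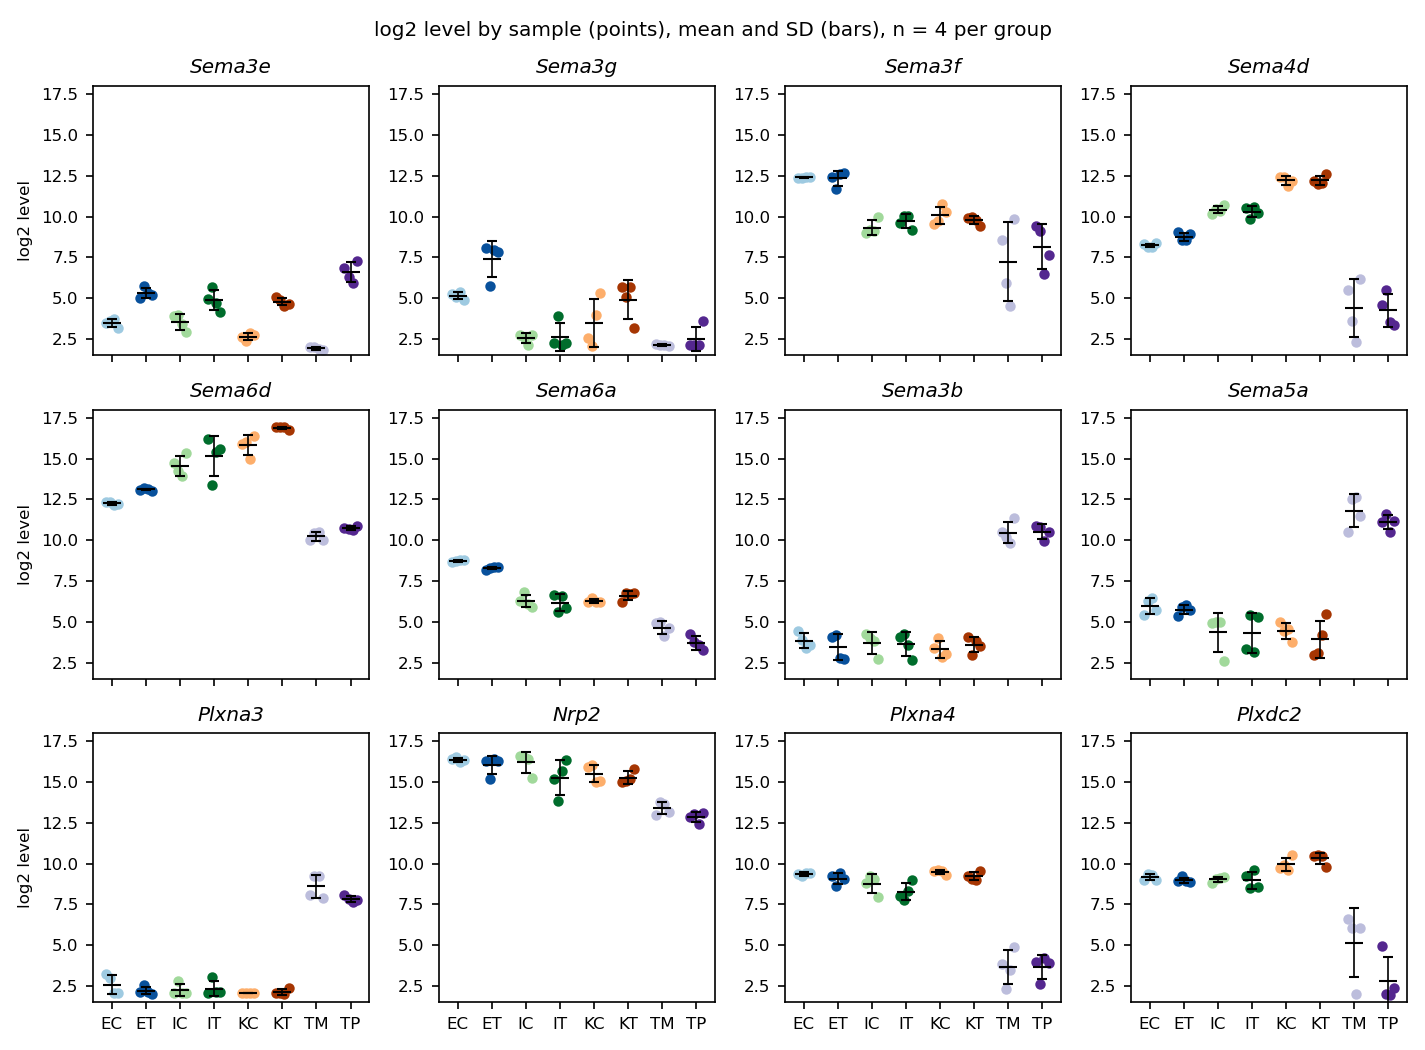
log2 level of 12 genes by sample (points, 4 per group), with the mean and SD of each group (bars). Sema3b, Sema5a and Plxna3 are high only in TM and TP, the group means of Sema4d and Sema6d increase from endothelial through Ito to Kupffer cells, and Sema6a and Sema3f are highest in EC and ET.

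The cell types were then compared with each other at the same dye, beginning with endothelial against Ito cells, which shared a slide. Sema3a, Sema3d, Sema3f and Sema3g, all secreted, and Sema6a and Sema6b were higher in EC, and Sema4c, Sema4d, Sema4g and Sema6d were higher in IC. In the controls 6 members were higher and 4 lower in EC, beside 6.77% and 5.23% of all genes. In the TME 4 were higher and 2 lower in ET, beside 5.44% and 4.44%. Sema3f, Sema3g, Sema6a and Sema6b were higher and Sema6d was lower in both comparisons, which use separate samples. With the replicate number as a block in the fit, none of the TME calls remained. All 10 called members of the controls and all 6 of the TME had groups that did not overlap, as did 92.3% and 79.8% of all called genes.

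Sema3f, a ligand of Nrp2, was at 12.39, 12.34, 12.44 and 12.42 in EC and 9.01, 9.19, 9.12 and 9.98 in IC. In the TME it was at 12.43, 11.69, 12.58 and 12.65 in ET and 9.63, 10.04, 10.05 and 9.19 in IT. All 8 endothelial samples lay above all 8 Ito samples, by 3.07 (SE 0.71, adjusted p = 0.00492) in the controls and 2.61 (SE 0.71, adjusted p = 0.0204) in the TME. Without the Ito and Kupffer arrays of replicate 4 the TME difference was 2.43 with an adjusted p of 0.0695.

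Sema3g was at 2.74, 2.64, 2.12 and 2.75 in IC and 2.23, 3.93, 2.15 and 2.26 in IT, in no sample well above background, against the endothelial levels given above. The controls differed by 2.58 (SE 0.60, adjusted p = 0.00529), at least 1.29-fold. The TME samples differed by 4.75 (SE 0.60, adjusted p = 6.33e-06), at least 3.23-fold. By this probe, endothelial samples were all higher than Ito samples. The call of the controls was lost with normexp background correction (adjusted p = 0.0828 with quantile and 0.156 with loess normalization). The other Sema3g probe was called in neither comparison (adjusted p = 0.45 in the controls and 0.274 in the TME by limma). It was well above background in 2 of 4 EC, 3 of 4 ET and no Ito samples.

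Sema6a was at 8.63, 8.73, 8.76 and 8.75 in EC and 6.27, 6.81, 6.10 and 5.91 in IC, and at 8.19, 8.27, 8.33 and 8.37 in ET and 6.64, 5.57, 6.58 and 5.85 in IT. The spread within EC and ET was small beside the distance to the Ito samples. The differences were 2.44 (SE 0.23, adjusted p = 8.28e-08) and 2.13 (SE 0.23, adjusted p = 6.83e-07). Sema6b, a class 6 semaphorin, was at 8.22, 9.08, 9.01 and 8.27 in EC and 6.02, 6.53, 5.95 and 5.70 in IC, a difference of 2.59 (SE 0.30, adjusted p = 1.3e-06), and it differed by 1.93 in the TME. Sema3a (1.11) and Sema3d (1.44), 2 further secreted ligands, were called in the controls but not in the TME. Whether this contrast differed between control and TME is the same test as the interaction of Ito and endothelial cells above. Neither gene was called in it (adjusted p = 0.999964 by limma for both).

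Sema6d had the largest difference in the other direction, at 12.31, 12.34, 12.15 and 12.18 in EC and 14.74, 14.21, 13.93 and 15.34 in IC. The TME samples were at 13.08, 13.17, 13.13 and 13.04 in ET and 16.21, 13.39, 15.40 and 15.56 in IT. The differences were -2.31 (SE 0.37, adjusted p = 0.000117) and -2.04 (SE 0.37, adjusted p = 0.000604), with IT replicate 2 nearest to the endothelial samples. Sema4d, known as CD100 and a ligand of Plxnb1 that is abundant on lymphocytes and myeloid cells, was at 8.29, 8.12, 8.15 and 8.37 in EC and 10.19, 10.43, 10.37 and 10.73 in IC, and EC minus IC was -2.19 (SE 0.51, adjusted p = 0.00538). In the TME it was at 9.03, 8.55, 8.58 and 8.91 in ET and 10.52, 9.83, 10.59 and 10.23 in IT, and the difference of -1.53 had an adjusted p of 0.0658.

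Sema4c (-1.23) and Sema4g (-1.86) were also lower in EC. Sema4g was at 2.05, 2.55, 2.21 and 2.11 in EC and 4.22, 4.18, 3.18 and 4.77 in IC, well above background in 2 IC samples only, at least 1.1-fold. Sema4a was lower in ET than in IT, with a difference of -1.14 (SE 0.31, adjusted p = 0.0204), and this call did not pass the test when only the 2 groups entered the fit (adjusted p = 0.0567). The summed Kupffer markers were at 15.69 to 16.18 in EC and 17.03 to 18.97 in IC, with 9 of 9 markers well above background in all samples of both, and they moved with Sema4d and Sema6d. The part of Kupffer cells and hepatocytes in these differences was not tested.

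**Figure D4:**
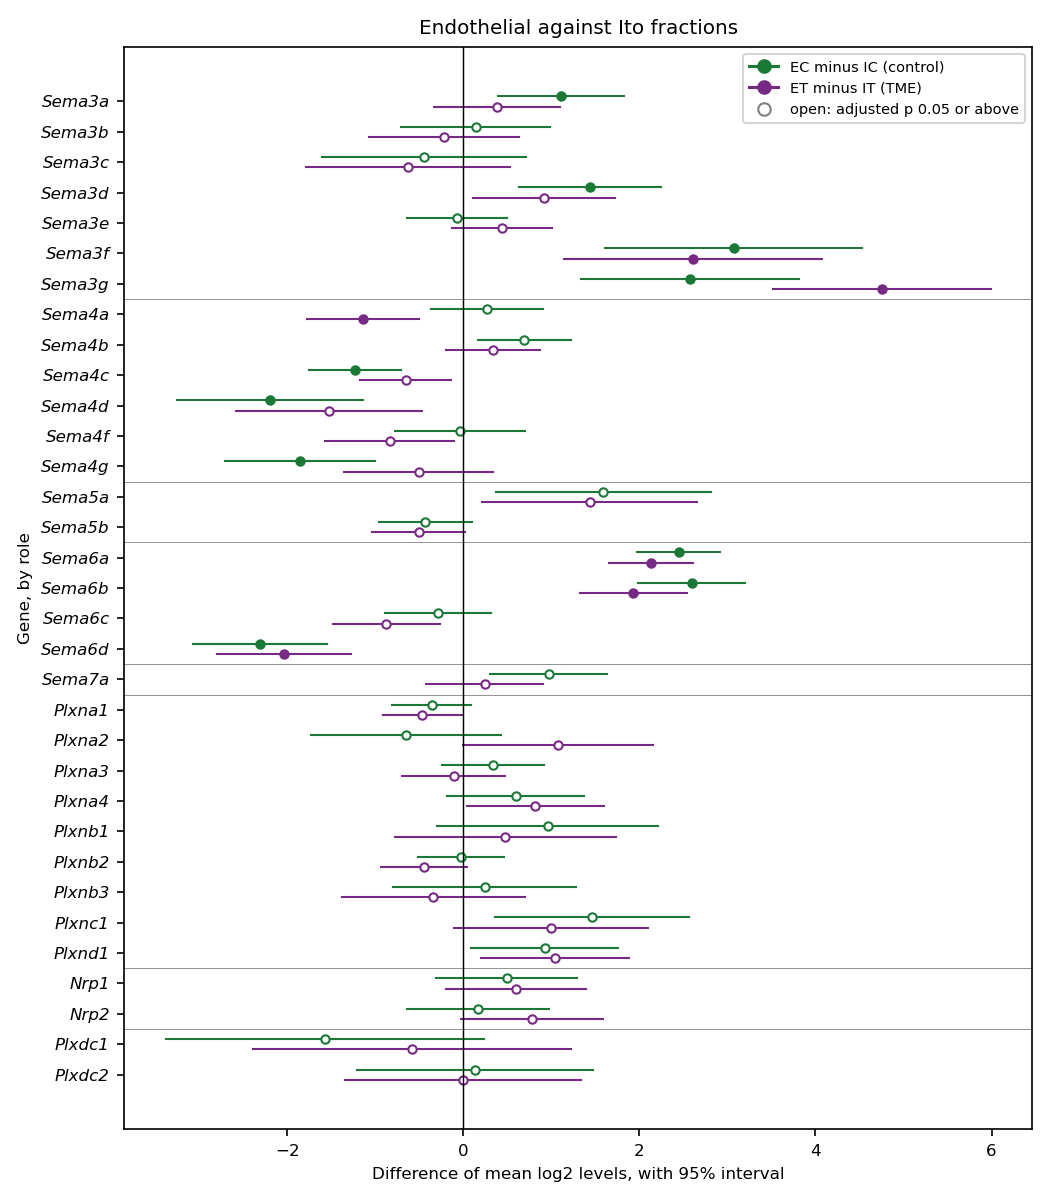
Difference in mean log2 level between endothelial and Ito samples for the 33 genes, in controls (green) and TME (purple), with 95% intervals. Filled points passed the test, and Sema3f, Sema3g, Sema6a and Sema6b lie to the right and Sema6d to the left in both.

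The tumor samples were set against Kupffer cells, the liver cells hybridized on the same slide and, for TM with KC and TP with KT, in the same dye. Plxna3, Plxnb1, Sema3a, Sema3b, Sema5a, Sema6b and Sema7a were higher in both tumor groups. Nrp2, Plxdc2, Plxna1, Plxna4, Plxnc1, Plxnd1, Sema3d, Sema4a, Sema4c, Sema4d, Sema6a and Sema6d were lower in both. In TM against KC 7 members were higher and 15 lower, beside 25.3% and 18.5% of all genes, and in TP against KT 8 were higher and 16 lower, beside 28.2% and 20.1%. The median difference over the 33 genes was -0.73 in TM and -1.21 in TP, beside 0.09 and 0.11 over all genes, again not matched in brightness. The groups did not overlap for 17 of the 22 called in TM and 22 of the 24 called in TP, beside 80.9% and 91.2% of all called genes.

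Sema3b, a secreted ligand, was at 10.47, 10.22, 9.79 and 11.34 in TM and 10.84, 10.83, 9.92 and 10.51 in TP. It was at 3.40, 3.99, 2.83 and 3.02 in KC and 4.05, 2.99, 3.81 and 3.54 in KT, not well above background in any of them. The differences of 7.15 (SE 0.41, adjusted p = 7.87e-14) and 6.93 (SE 0.41, adjusted p = 1.23e-13) are at least 15.7-fold and 17.4-fold. In the endothelial and Ito samples Sema3b did not exceed 4.46, so all 8 tumor samples lay above all 24 liver samples.

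Sema5a, a membrane semaphorin with thrombospondin repeats, was at 10.52, 12.55, 12.66 and 11.51 in TM and 11.09, 11.58, 10.52 and 11.18 in TP. The Kupffer samples were at 4.99, 4.44, 4.57 and 3.76 in KC and 2.95, 3.11, 4.16 and 5.45 in KT. The lowest tumor sample was far above the highest Kupffer sample, with differences of 7.37 (SE 0.59, adjusted p = 5.08e-11) and 7.18 (SE 0.59, adjusted p = 7.4e-11). The Sema5a spot was well above background in 2 of 4 KC and 2 of 4 KT samples. Over the alternative settings its differences ran from 5.47 to 7.98 in TM and from 4.82 to 7.69 in TP. Sema3a, a secreted ligand of Nrp1, was at 9.81, 11.48, 11.66 and 10.16 in TM and 6.29, 6.39, 6.90 and 6.22 in KC, with differences of 4.33 and 4.19, and both of its probes were higher in the tumor samples.

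Plxna3, a class A plexin, was at 8.06, 9.25, 9.22 and 7.93 in TM and 8.06, 7.81, 7.67 and 7.76 in TP, and at 2.08, 2.08, 2.05 and 2.05 in KC and 2.07, 2.07, 2.04 and 2.40 in KT. It was well above background in 8 of 8 tumor and 0 of 24 liver samples. The differences of 6.55 (SE 0.28, adjusted p = 2.29e-16) and 5.68 (SE 0.28, adjusted p = 3.8e-15) are at least 6.81-fold and 4.34-fold. Plxnb1, the receptor of Sema4d, was higher by 3.18 (SE 0.61, adjusted p = 9.42e-05) in TM, at least 1.59-fold, and by 2.29 (SE 0.61, adjusted p = 0.00287) in TP, at least 1.37-fold, where TP replicate 3 overlapped with KT. Sema6b (1.31 and 1.67) and Sema7a (0.83 and 1.21) completed the genes higher in both.

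Sema4d was much lower in the tumor samples than in Kupffer cells. It was at 5.50, 3.62, 2.32 and 6.17 in TM and 4.59, 5.51, 3.56 and 3.35 in TP, against 12.42, 12.43, 11.87 and 12.16 in KC and 12.21, 12.01, 12.05 and 12.64 in KT. No tumor sample came near the Kupffer samples, and the differences were -7.82 (SE 0.51, adjusted p = 9.2e-13) and -7.97 (SE 0.51, adjusted p = 5.35e-13). The spot was well above background in 3 of the 8 tumor samples, and the difference in TP was -5.54 with normexp and loess normalization.

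Sema6d was at 9.99, 10.44, 10.47 and 10.03 in TM and 10.77, 10.69, 10.59 and 10.89 in TP, against 15.91, 16.02, 14.99 and 16.39 in KC and 16.93, 16.92, 16.91 and 16.78 in KT. It was well above background in all tumor samples too, and differed by -5.59 (SE 0.37, adjusted p = 1.14e-12) and -6.15 (SE 0.37, adjusted p = 1.52e-13). Plxna4, a receptor of Sema3a and Sema6a, was at 3.87, 2.34, 3.50 and 4.87 in TM and 3.99, 2.61, 4.24 and 3.92 in TP, against 9.55, 9.59, 9.55 and 9.33 in KC and 9.24, 9.09, 9.02 and 9.58 in KT. Its differences were -5.86 (SE 0.38, adjusted p = 6.64e-13) and -5.54 (SE 0.38, adjusted p = 1.68e-12), the latter at least 6.35-fold. The spot was well above background in 1 of 4 TM and 0 of 4 TP samples. Over the alternative settings the TM difference ran from -6.32 to -3.24.

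Plxdc2 was at 9.75, 9.95, 9.64 and 10.54 in KC and 10.45, 10.56, 10.49 and 9.81 in KT, against the tumor levels given above. It differed by -4.80 (SE 0.65, adjusted p = 6.29e-07) and -7.49 (SE 0.65, adjusted p = 1.97e-10), the latter at least 17.3-fold. The other genes lower in both are given by their differences in TM and in TP. These were -3.24 and -3.29 for Sema4a and -2.51 and -3.31 for Sema4c. Sema3d was well above background in no tumor sample and was lower by at least 1.36-fold in TM and 1.01-fold in TP. Among the plexins they were -2.89 and -1.63 for Plxnc1, -1.07 and -1.55 for Plxnd1 and -0.91 and -0.74 for Plxna1. For Plxnd1, TM and KC overlapped and the call was lost in 7 of 14 settings. Sema6a differed by -1.62 in TM and was well above background in no TP sample, where it was lower by at least 1.81-fold.

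Nrp2 was at 12.99, 13.80, 13.66 and 13.19 in TM and 12.86, 13.02, 12.45 and 13.10 in TP, below all liver samples, of which IT replicate 2 came nearest, and it differed by -2.12 (SE 0.39, adjusted p = 6.13e-05) and -2.42 (SE 0.39, adjusted p = 8.68e-06). Nrp1 was at 7.36, 5.53, 5.60 and 6.18 in TM and 6.02, 5.69, 6.95 and 5.71 in TP. It was lower in TP than in KT, with a difference of -1.62 (SE 0.39, adjusted p = 0.00106), whereas TM and KC differed by -0.96 with an adjusted p of 0.0512 and overlapped. Sema3e was higher in TP than in KT by 1.79 (SE 0.28, adjusted p = 4.45e-06). It also passed the test in TM against KC, but no sample of either group was well above background and the call was lost in 7 of 14 settings, so no direction is given. Genes called only in TM were Plxdc1 (-2.69) and Sema3f (-2.86), both lower. Those called only in TP were, beside Nrp1, Plxnb2 (-0.98), Plxnb3 (-2.36, at least 1.18-fold) and Sema3g (-2.40, at least 1.17-fold), all lower.

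The summed Kupffer markers were at 17.05 to 19.30 in KC, 11.17 to 12.88 in TM and 10.64 to 12.26 in TP, with 2 of 9 markers well above background in all samples of each tumor group. Hepatocyte markers, with 0 of 8 well above background in all samples of TM or of TP, were at 5.94 to 6.53 in TM. Of the liver endothelial markers, 10 of 10 were well above background in all Kupffer samples, 3 of 10 in all TM and 1 of 10 in all TP samples. Their sum reached 14.96 to 15.49 in KC against 12.38 to 12.95 in TM. Kdr of this list went the other way, at a mean of 12.61 in TM and 12.28 in KC. The Kupffer and hepatocyte marker sums moved with the members that were lower in the tumor samples, and their part in the results was not tested.

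**Figure D5:**
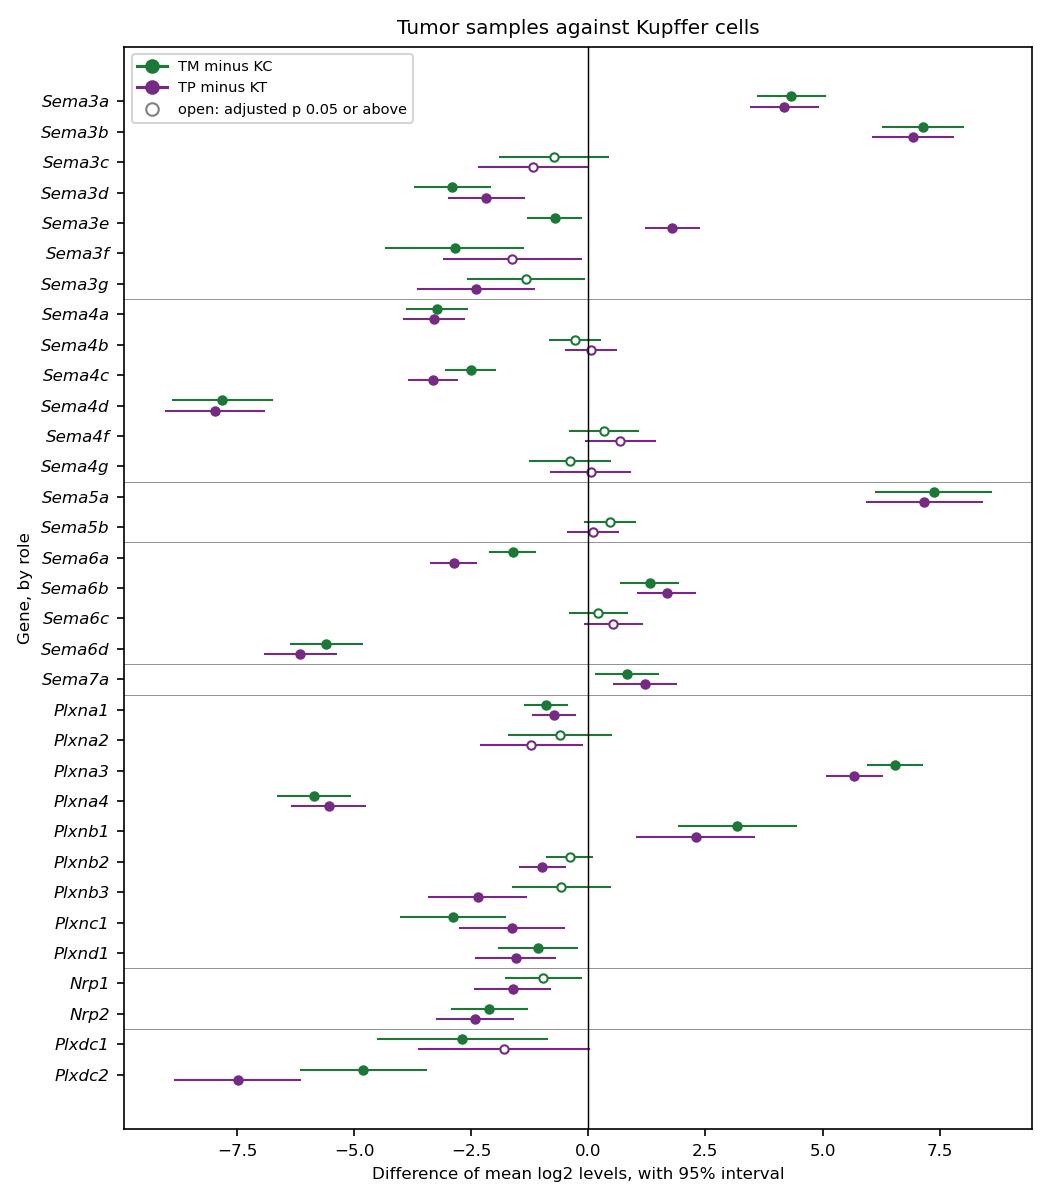
Difference in mean log2 level between tumor and Kupffer samples for the 33 genes, for metastasis against control Kupffer cells (green) and primary tumor against TME Kupffer cells (purple), with 95% intervals. Sema5a, Sema3b and Plxna3 lie far to the right and Sema4d and Sema6d far to the left in both comparisons. The Sema3e point of TM minus KC compares 2 groups below background.

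Kupffer cells were also set against the endothelial and Ito controls, in the same dye but on another slide, so cell type and slide cannot be told apart here. Both comparisons share the KC samples. The summed Kupffer markers were at 17.05 to 19.30 in KC, 17.03 to 18.97 in IC and 15.69 to 16.18 in EC. KC and IC thus overlapped in these markers. Hepatocyte markers were at 13.05 to 15.35 in KC and 16.41 to 18.48 in IC. The part of such cell mixtures in the differences was not tested. Against EC 8 members were higher and 8 lower, beside 10.2% and 14.1% of all genes, and against IC 6 were higher and 2 lower, beside 8.16% and 8.85%. Sema4d was higher in KC by 3.99 (SE 0.51, adjusted p = 2.26e-06) than in EC and by 1.79 (SE 0.51, adjusted p = 0.017) than in IC. Sema4a was at 11.49, 11.12, 11.30 and 12.01 in KC, higher by 1.99 (SE 0.31, adjusted p = 2.96e-05) than in EC and by 2.25 (SE 0.31, adjusted p = 1.39e-05) than in IC, and all 4 KC samples lay above all control samples of the other cells.

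Sema7a, a lipid-anchored semaphorin that acts through Plxnc1 and integrins, was at 9.08, 8.99, 9.73 and 9.05 in KC, 6.81, 6.78, 6.75 and 6.60 in IC and 7.92, 7.40, 7.45 and 8.04 in EC. It was higher in KC by 2.48 (SE 0.32, adjusted p = 6.87e-06) than in IC and by 1.51 (SE 0.32, adjusted p = 0.00101) than in EC, without overlap. Plxnc1 itself was at 7.52, 7.55, 7.10 and 7.19 in KC and 9.69, 9.46, 9.52 and 9.54 in EC, and KC minus EC was -2.21 (SE 0.54, adjusted p = 0.00332). Plxdc1 was at 7.46, 7.35, 7.63 and 9.05 in KC and 4.18, 5.09, 4.93 and 4.23 in EC, higher in KC by 3.27 (SE 0.88, adjusted p = 0.00758).

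Sema6a (-2.46), Sema3f (-2.32), Sema6b (-1.74), Sema3a (-1.67), Sema3g (-1.67), Sema3d (-1.58) and Sema3e (at least 1.04-fold, lost in 6 of 14 settings) were the other members lower in KC than in EC. The Sema3g groups overlapped, with 1 of 4 KC samples well above background, and its call was lost in 9 of 14 settings. Plxnb2, Plxna1, Sema6d and Sema7a were, with Sema4a and Sema4d, the 6 genes higher than in IC, and Sema4g (at least 1.07-fold) and Sema3e (at least 1.03-fold) the 2 lower ones, neither of them well above background in any KC sample. The calls of Sema4g and Sema3e were lost in 10 of 13 and 9 of 14 settings. The groups did not overlap for 14 of the 16 genes called against EC and 6 of the 8 called against IC, beside 89.6% and 78.6% of all called genes.

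The pair of Sema6d probes disagreed on this last comparison. The brighter probe was higher in KC than in EC by 3.58 (SE 0.37, adjusted p = 9.72e-08). The other, matched to the same transcript record, was at 8.19, 8.06, 8.32 and 7.44 in KC and 8.86, 9.44, 9.41 and 8.91 in EC and differed by -1.16 (SE 0.34, adjusted p = 0.0146) in the opposite direction. Both were lower in the tumor samples than in Kupffer cells, the dimmer probe by -3.71 and -3.31. Statements on Sema6d in endothelial, Ito and Kupffer cells therefore hold for 1 of its 2 probes, and which of them follows the transcript was not tested. In the other 13 genes with several probes, no comparison called 2 probes of a gene in opposite directions. The second probe was not always called with the first, as for Sema3g between endothelial and Ito cells.

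Of the 33 members, 27 were called in at least 1 of the 10 comparisons. The 6 that were called in none were Plxna2, Sema3c, Sema4b, Sema4f, Sema5b and Sema6c. Of these, Plxna2, Sema4b and Sema6c were well above background in all 32 samples, Sema5b in 19, Sema3c in 9 and the brighter probe of Sema4f in 0. Sema4b ran from 8.86 to 9.58 in EC, 8.42 to 8.86 in IC and 8.82 to 9.90 in KC to 8.73 to 8.96 in TM, and Sema6c from 7.66 to 7.99, 7.71 to 8.52 and 7.79 to 9.54 to 8.46 to 8.71.

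Outside the family, 47 genes of the pathway were read from a list of plexin effectors, co-receptors and VEGF partners, and all 47 were on the array. Only Dpysl2, a collapsin response mediator that links Sema3a to microtubules, was called in TME against control, higher in ET by 0.85 (adjusted p = 0.0232). Of all genes, 0.692% were higher in ET. Endothelial cells were higher than Ito cells in 9 of the 47 genes and lower in 3 among the controls, beside 6.77% and 5.23% of all genes. In the TME these counts were 8 and 2, beside 5.44% and 4.44% of all genes. The VEGF-C receptor Flt4 (2.62), the integrin Itga1 (2.52) and Mical2, of the MICAL family of plexin effectors, (2.14) were the highest of them in EC against IC.

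Between tumor and Kupffer samples, 8 of the 47 pathway genes were higher and 17 lower in TM, beside 25.3% and 18.5% of all genes. In TP, 10 were higher and 20 lower, beside 28.2% and 20.1% of all genes. Vegfc, a ligand of Nrp2 and Flt4, was well above background in 1 of 4 TM and 0 of 4 TP samples. It was lower in TM, at a mean of 2.97 against 11.89 in KC, and lower in TP by at least 49.5-fold. The differences of Cd72, a receptor of Sema4d on immune cells, were -7.26 and -7.42, and those of Tyrobp, the adaptor that signals with Plxna1 and Trem2, were -5.90 and -5.77. Crmp1, a further collapsin response mediator, was well above background in no Kupffer sample and was higher by at least 5.72-fold in TM and 15.9-fold in TP. Dpysl5, of the same family and known mainly from neurons, was at a mean of 15.92 in KC, 12.92 in EC and 10.82 in TM. Against EC, KC was higher in 10 and lower in 6 pathway genes, beside 10.2% and 14.1% of all genes. Against IC the counts were 9 and 3, beside 8.16% and 8.85% of all genes.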

How the data were processed

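Labelled RNA of 32 samples was hybridized to 16 two-color Agilent arrays on 2 slides. The authors extracted intensity values with Agilent Feature Extraction 10.7.3.1 and deposited a table normalized by the quantile method, whose linear intensity values were used here after taking log2. Over the members this table differed from quantile-normalized scanner signal by a median of 0.0290 on the log2 scale (largest 0.105). Gene names and mm9 positions are those of the array files.

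All 8 groups were fitted in 1 model on 55681 probes with limma 3.58.1 (R 4.3.3, lmFit and eBayes), with Benjamini-Hochberg adjustment over all probes. Each gene was represented by the probe with the highest mean log2 level. Values in every sample are given for members called within arrays, up to 3 members with the largest differences per direction elsewhere, and Nrp1, Nrp2 and Plxnd1. The members, the pathway and marker lists and this rule were chosen with earlier results of these data known.

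Between 38.4% and 57.1% of spots per sample were well above background and 0 were saturated, and 4 arrays per comparison limit the precision. Bounds ("at least N-fold") come from normexp (offset 50), loess and Aquantile, whose channels are open to dye bias because no dye was swapped. Alternatives covered source, background correction, scaling, filter, probe, test, threshold, pairing and left-out replicates. Same-numbered samples shared an array, but their deviations did not correlate above 0.1 in every pair. Figures were drawn with matplotlib.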

Additional observations from a re-analysis of the deposited data

Results flagged for a closer look

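For the 27 members called in at least 1 comparison, each of 216 gene and group combinations of 4 samples was searched for a sample set apart from the other 3 by Dixon's criterion at 95%, and 32 were found. Chance alone gives about 1 in 20. All values are log2 levels, with the range of the other 3 samples in parentheses. Most of them fell on a few samples.

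In ET replicate 2, Nrp2 (15.19, others 16.27 to 16.39), Plxna1 (7.96, others 8.56 to 8.63) and Sema3g (5.75, others 7.80 to 8.05) were low, and Sema3a (8.33, others 6.82 to 6.90) and Sema3d (7.40, others 5.74 to 5.95) were high. In IT replicate 2, Nrp1 (5.53, others 7.22 to 7.36) and Sema4c (16.50, others 17.58 to 17.60) were low, while Sema7a (8.61, others 6.49 to 6.64), Sema3g (3.93, others 2.15 to 2.26) and Plxna3 (3.03, others 2.07 to 2.11) were high, the last 2 not well above background.

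In IC replicate 4, Nrp2 (15.23, others 16.42 to 16.62), Plxnd1 (11.32, others 12.38 to 12.47) and Sema5a (2.58, others 4.89 to 4.99) were low, and Plxnb2 (12.64, others 11.72 to 11.77) and Sema4a (10.33, others 8.77 to 8.92) were high. On the same array IT replicate 4 was low in Sema4a (9.14, others 10.12 to 10.24). In KC replicate 4, Plxdc1 (9.05, others 7.35 to 7.63) and Plxnb2 (14.19, others 13.41 to 13.48) were high and Plxna4 (9.33, others 9.55 to 9.59) was low. KT replicate 4 was low in Plxdc1 (7.52, others 8.82 to 8.95), Plxdc2 (9.81, others 10.45 to 10.56) and Sema6d (16.78, others 16.91 to 16.93) and high in Plxna3 (2.40, others 2.04 to 2.07), a gene not well above background in any Kupffer sample.

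The other values were Plxdc2 in TM replicate 3 (2.00, others 6.04 to 6.60) and TP replicate 1 (4.98, others 1.96 to 2.37), Plxna3 in IC replicate 2 (2.80, others 2.07 to 2.08), Sema3g in IC replicate 3 (2.12, others 2.64 to 2.75) and TP replicate 4 (3.60, others 2.11 to 2.16), Sema4c in TP replicate 3 (13.98, others 14.29 to 14.31), Sema6a in KC replicate 2 (6.45, others 6.18 to 6.22) and KT replicate 1 (6.19, others 6.69 to 6.76), and Sema7a in KC replicate 3 (9.73, others 8.99 to 9.08). Of these, the Plxdc2, Plxna3 and Sema3g samples were not well above background.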

How the results depend on the processing

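No call of a member reversed its direction under any setting that was run. Of the 92 calls, all 92 remained with scanner signal under quantile normalization, 89 with 75th percentile scaling, 80 with normexp and either normalization, 86 of 87 with the filter on dim probes, 79 with only the groups compared, 73 with the equal-variance t-test and 41 at an adjusted p under 0.001 and 4-fold.

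Counts of called members that moved by over 1.5 times were as follows, with the cause not tested. For ET minus EC (1) they were 4 with normexp, loess and Aquantile, 3 with the filter, 7 with only the groups compared, 4 with the t-test and 0 at the strict threshold. For IT minus IC (1) the count was 0 with normexp and quantile, with loess, with 75th percentile scaling, with only the groups compared, with the t-test and at the strict threshold. For KT minus KC (1) it was 0 with normexp and quantile and 2 with 75th percentile scaling. For TP minus TM (3) it was 1 with only the groups compared, with the t-test and at the strict threshold. For ET minus IT (6) it was 11 with loess. The strict threshold left 3 for EC minus IC (10), 3 for ET minus IT, 14 for TM minus KC (22), 14 for TP minus KT (24), 3 for KC minus EC (16) and 2 for KC minus IC (8). The interaction count (0) was 1 with loess.

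Same-numbered samples share an array within a cell type and only a number across cell types. The array as a replicate block kept all 6 calls within arrays. With the number as a replicate block, ET minus IT fell to 0 calls, as did no other comparison, and TM minus KC had 16.

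Leaving out 1 replicate number at a time gave 1 to 2 calls for ET minus EC, 0 to 6 for IT minus IC (6 without replicate 4, 0 without each other), 1 to 3 for KT minus KC (3 without replicate 4), 1 to 3 for TP minus TM (1 without replicate 2 or 4), 6 to 9 for EC minus IC (6 without replicate 1), 3 to 6 for ET minus IT (3 without replicate 1), 19 to 22 for TM minus KC, 22 to 24 for TP minus KT, 11 to 15 for KC minus EC, 3 to 7 for KC minus IC (3, 4 and 5 without replicates 1, 3 and 4) and 0 to 1 for the interactions. Leaving out only the Ito and Kupffer arrays of replicate 4, chosen after seeing the data, gave 3 for ET minus EC, 7 for IT minus IC, 3 for KT minus KC and 1 interaction.

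Dim signal limits Plxna3, Plxnb1, Plxnb3, Sema3b, Sema3c, Sema3e, Sema3g, Sema4f and Sema4g, each well above background in at most 13 of 24 liver samples, where levels near background have no reliable fold.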

Other observations

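Some second probes held values that were not given above. The second Plxna2 probe lies on chromosome 14 of mm9 while the gene and its other probe lie on chromosome 1, and it was the only 1 of the 48 probes placed on another chromosome than its gene. It was at 7.51, 8.32, 9.53 and 7.30 in IC.

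On single arrays a second probe was raised in both channels at once. The second Sema6c probe was at 9.62 in IC replicate 2 and 9.41 in IT replicate 2, which share an array, against 3.66 to 5.02 in the other 6 Ito samples. The second Sema4f probe was at 4.69 in KC replicate 2 and 4.64 in KT replicate 2, against 2.21 to 2.45 in the other 6 Kupffer samples. Neither probe represented its gene in the comparisons.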
